A study of Mus musculus with 15 samples.

Results

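The regions described here carried an ATAC-seq peak in both mTOR mutants and none in the wild-type control. The peak lists of the 3 libraries were merged where peaks overlapped or touched, on chromosomes 1 to 19, X and Y. A merged region was a member when it held a KO peak and a KI peak and no WT peak. This rule gave 3502 members of 32764 merged regions (10.7%). They were 22.2% of the 15784 regions that held a peak of both mutants. The members were thus chosen by the peak calls themselves, and their number and their lack of a WT peak are descriptions. ATAC-seq uses a transposase that cuts accessible DNA, so that a peak marks a stretch open to proteins in the sampled cells.

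The series studied the role of mTOR apart from its kinase activity, per its title. Each library was made from 50000 sorted haematopoietic stem cells (HSC) of adult, poly(I:C)-treated mice, with transposition for 30 min at 37 °C. The WT control was Mx1-Cre-/-;mTORflox/flox, the KO was Mx1-Cre+/-;mTORflox/flox and the KI was Mx1-Cre+/-;mTORflox/knockin. There was 1 library per genotype, and 12 RNA-seq samples of the series were not analysed here. All 3 genotypes carried at least 1 floxed Mtor allele and received poly(I:C), which induces interferon and through it the Mx1 promoter that drives Cre. This promoter is not specific to HSC, so that other blood cells and tissues of the mutants can recombine too. WT had no Cre while both mutants did, so that Cre itself and the changed Mtor alleles cannot be told apart. The labels do not say what the knock-in allele changes. The WT and KO libraries are labelled re-analyzed, unlike the KI library, and a batch effect on KI cannot be told apart from its genotype either. Nothing in the labels says how many mice gave the cells of a library.

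mTOR is the kinase at the core of the complexes mTORC1 and mTORC2, which couple nutrients and growth factors to protein synthesis, autophagy and cell growth. HSC are rare, mostly quiescent cells, and both interferon and changed mTOR activity are known to alter their quiescence. Promoters of widely used genes are open in nearly all cells, whereas distal sites such as enhancers tend to be open in particular cell states.

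The WT list held 17316 peaks, the KO list 19189 and the KI list 28391, at unknown read depth. Of 36 genes chosen as HSC markers, 17 had a peak within 1 kb of a gene end in WT, 16 in KO and 23 in KI, among them Hlf, Mecom, Meis1 and Kit in all 3 libraries. Slamf1, Ly6a, Fgd5 and Gata2 had none in any library. Gene ends of B lymphoid markers had peaks for 4, 2 and 5 of 22 genes in WT, KO and KI, and those of erythroid markers for 12, 16 and 21 of 30. Among the 21890 genes of the annotation the same counts were 9678, 9664 and 11259, so that KI had more in general. Mtor itself held none of the members in its body or within 10 kb. Its start carried a peak in WT and in KI and none in KO.

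A few stretches from the strongest members at promoters show what the regions look like in sequence. A member's strength was read from the score in the fifth column of each list, as a percentile rank within that list, and members were ordered by the lower of their KO and KI percentiles. The stretches are the bases before the annotated start that lay inside both mutant peaks and outside the span of any protein-coding gene, from RefSeq promoter windows of GRCm38.p6 (mm10), printed in the direction of the gene. Capitals mark matches on either strand to the motifs of GATA factors (spelled AGATAA), ETS factors (spelled CCGGAAG), RUNX factors (spelled TGTGGTT), AP-1 (spelled TGACTCA), the interferon-stimulated response element or ISRE (spelled AANNGAAAC), CRE (spelled TGACGTCA), NRF1 (spelled GCGCATGC), SP/KLF factors (spelled GGGCGG), NFY (spelled CCAAT), the E-box (spelled CACGTG) and the ZNF143 core (spelled ACTACAANT). None of these spellings contains another.
Trim12a, chr7:104315559-104315745, - strand: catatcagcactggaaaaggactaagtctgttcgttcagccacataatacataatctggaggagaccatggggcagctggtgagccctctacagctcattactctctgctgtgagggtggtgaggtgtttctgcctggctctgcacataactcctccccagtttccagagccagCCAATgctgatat
Zfp58, chr13:67500523-67500708, - strand: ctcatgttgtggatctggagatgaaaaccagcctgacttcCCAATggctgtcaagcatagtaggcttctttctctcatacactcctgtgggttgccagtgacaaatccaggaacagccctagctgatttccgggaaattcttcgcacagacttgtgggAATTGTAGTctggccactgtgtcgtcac
Slc36a4, chr9:15709488-15709737, + strand: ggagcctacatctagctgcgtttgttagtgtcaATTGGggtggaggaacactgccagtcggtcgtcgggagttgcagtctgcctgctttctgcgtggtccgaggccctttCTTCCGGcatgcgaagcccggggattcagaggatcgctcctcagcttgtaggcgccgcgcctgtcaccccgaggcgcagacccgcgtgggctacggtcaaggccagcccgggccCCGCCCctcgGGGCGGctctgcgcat
Nup205, chr6:35177366-35177615, + strand: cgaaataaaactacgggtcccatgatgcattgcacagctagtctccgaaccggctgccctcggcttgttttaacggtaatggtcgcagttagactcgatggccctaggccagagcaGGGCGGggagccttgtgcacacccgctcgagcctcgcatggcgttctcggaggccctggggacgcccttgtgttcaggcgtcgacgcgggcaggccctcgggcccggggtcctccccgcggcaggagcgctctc
Msrb2, chr2:19371401-19371435, + strand: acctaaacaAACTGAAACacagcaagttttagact

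The stretches were unlike each other. That of Slc36a4 had a GC content of 66.0% with ETS, NFY and SP/KLF matches, as is usual for promoters of widely expressed genes. That of Trim12a had 50.8% GC and a single NFY match, and that of Msrb2 was short and held an ISRE, the element bound by interferon-activated factors. The full promoter window of Trim12a held an ISRE match too, but not within the printed stretch.

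The members were on the whole weak peaks. Their median rank was the percentile 30.5 of the KO list (quartiles 15.5 and 46.2) and 43.0 of the KI list (25.4 and 57.3). In the KO list their scores ran from 50.02, close to the lowest score listed, to 262.37, and in the KI list from 50.04 to 391.49. Scores of the 2 lists are not on a common scale and are not compared. The top 50% of the KO list, at or above its median score of 87.24, held 715 members (20.4%), and the top 50% of the KI list, from 93.3, held 1329 (37.9%). Both applied to 421 members (Wilson 95% interval of the share 11.0% to 13.1%), against 54.8% of all regions with a KO and a KI peak and 67.0% of the regions with a peak in all 3 lists. Read the other way, 4.86% of the 8654 regions in the top 50% of both mutant lists lacked a WT peak. These intervals cover counting error over regions, which are not replicates.

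**Figure D1:**
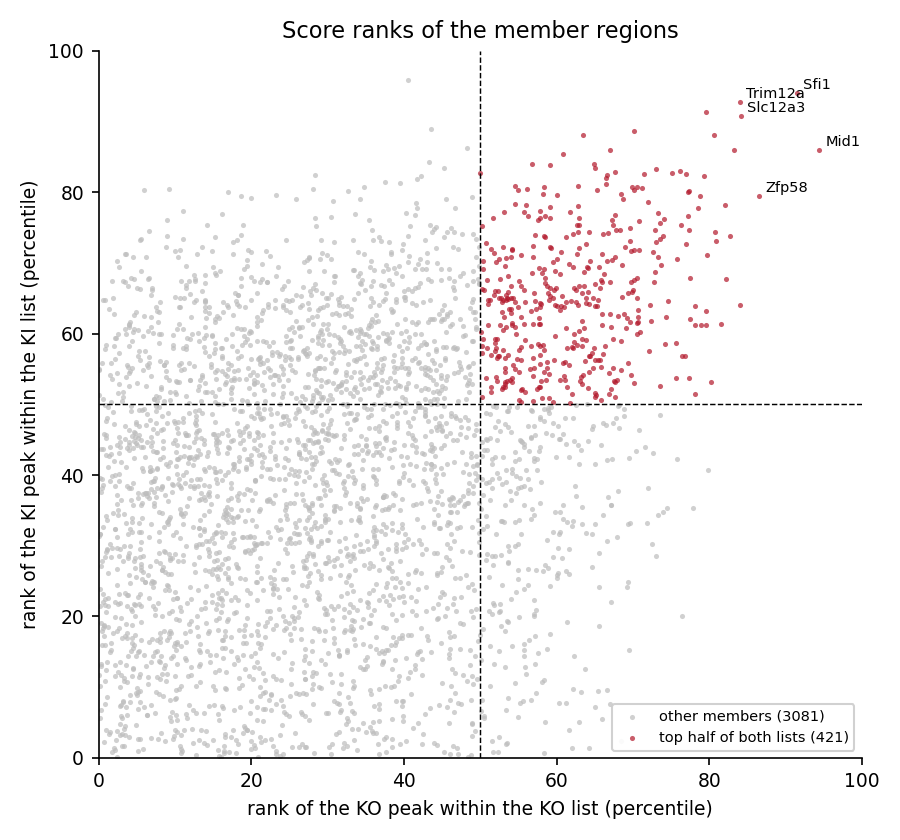
Each point is 1 member, with the percentile rank of its KO peak on the x axis and of its KI peak on the y axis; dashed lines mark the middle of each list. The 421 members in the top 50% of both lists are red, and most of the 3502 members lie below the middle of at least 1 list.

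The ranks in the mutants went together loosely. The Spearman rank correlation between the KO and KI percentiles was 0.279 over the 3502 members and 0.795 over the 12282 regions of all 3 lists. These are descriptions across regions, which share the 2 libraries, and the members' ranks lay mostly in the lower part of each list. The KI percentile was the higher one in 65.5% of members and in 75.8% of the regions of all 3 lists. In 171 members the percentiles differed by 50 or more, and in 148 of these the KI rank was higher. At Fuz, a planar polarity and ciliogenesis gene, the region in the gene body had the KO percentile 5.91 and the KI percentile 80.3. The highest KI score, 391.49, lay in the body of the phosphatase gene Ppm1h, where the KO score was 76.61. In the opposite direction, a region in the body of Phf20 had the KO percentile 68.4 and the KI percentile 2.33.

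The KO and KI peaks of a member mostly covered the same bases. A single KO peak and a single KI peak made up 3447 of the members. The median overlap was 319 bp, or 85.0% of the KO peak and 79.7% of the KI peak, and in 84.6% of members it reached at least 50% of both peaks. The peak centres lay a median of 62.5 bp apart. Members had a median width of 516 bp (quartiles 423 and 628), between the regions of all 3 lists (889 bp) and those of KO alone (343 bp) or KI alone (330 bp). The members of the top 50% were wider, at a median of 634 bp against 502 bp for the others.

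Few members lay close to a WT peak. The median distance was 24769 bp (quartiles 9735.5 and 59001), and 145 members (4.14%) lay within 1 kb. KO-alone regions had a median distance of 26384 bp and KI-alone regions of 26290 bp. The members just inside the rule were those at Cfp (properdin, a complement factor), Dtnbp1 and Fgfr3, which missed a WT peak by 12, 18 and 26 bp. Just outside it were regions at Gsto1, near Prom2 and at Nr2c2ap, whose overlap with a WT peak was 9, 17 and 20 bp. Only 31 members lay within 100 bp of a WT peak, so that few depended on the exact peak border.

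**Figure D2:**
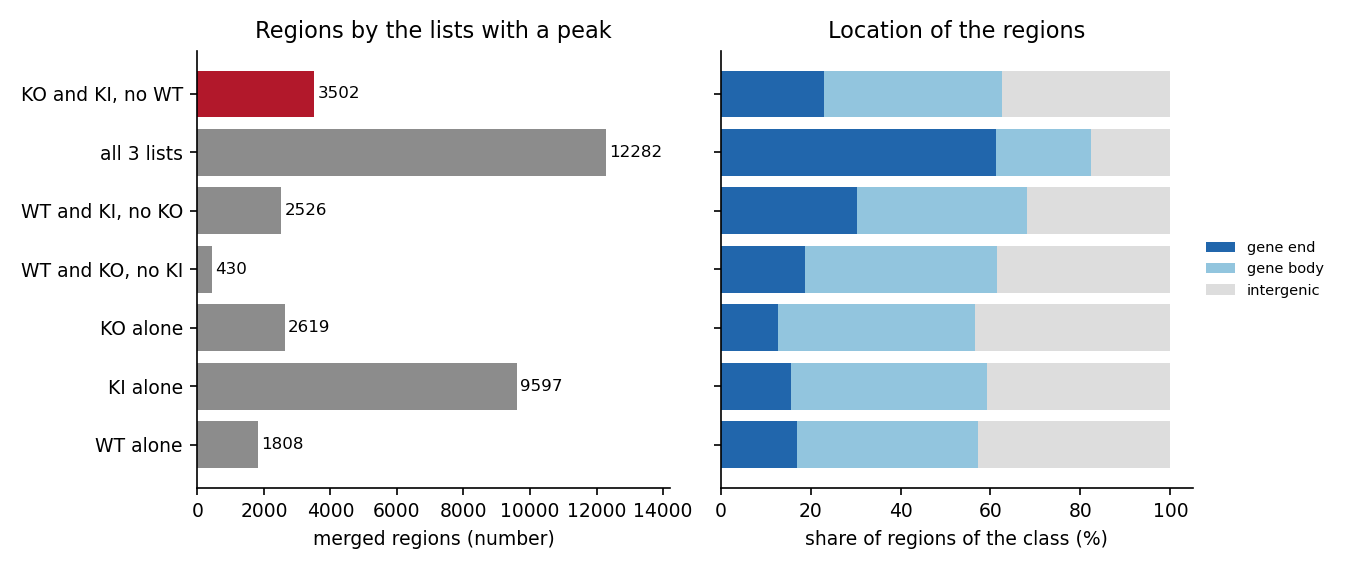
The left panel gives the number of merged regions by the lists with a peak in them, and the right panel the share of each class at a gene end, in a gene body or intergenic. The 3502 members (red) were at a gene end in 23.0% of cases, against 61.2% of the regions of all 3 lists.

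Members lay away from gene ends more often than the regions open in all 3 libraries. A gene end is here a stretch within 1 kb of either annotated end of a protein-coding gene, since the gene table gives no strand. It held 804 members (23.0%, 21.6 to 24.4), while 1383 (39.5%) lay in gene bodies and 1315 (37.5%) were intergenic. The share at gene ends was 61.2% among regions of all 3 lists, 30.4% among those with WT and KI peaks only, 18.8% with WT and KO peaks only, 15.6% for KI alone and 12.8% for KO alone. Among the members in the top 50% of both lists it was 31.6% (27.3 to 36.2), against 21.8% (20.4 to 23.3) of the other members. The median distance from a member to the nearest gene end was 12699.5 bp, and 992 members (28.3%) had no gene within 10 kb. Members made up between 9.4% of the regions of chromosome 9 and 12.3% of those of chromosome 16, with the other autosomes and X in between. None of the 27 regions of Y was a member.

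Of 21890 genes, 896 (4.09%) had a member at an end. Of the 12212 genes with no WT peak at an end, 733 (6.0%) had one. A member in the top 50% of both lists lay at the ends of 155 genes (0.708%). In the gene body or within 10 kb, 2921 genes (13.3%) had a member, and 787 of them had no WT peak in that whole stretch. Some genes collected several: 368 genes had at least 2 members, and Rapgef2, Pdzd2, Nav2, Pde4d and the predicted gene Gm40363 had 5 each. The members had 2869 different genes as their own or nearest gene.

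The 15 strongest members at gene ends marked genes of varied function. Slc12a3, the sodium chloride cotransporter best known from the kidney, came first, with a KO score of 176.33 and a KI score of 293.68. Its region, chr8:94365218-94365921, lay inside the gene, 300 bp from an annotated end, and 1423 bp from a weak WT peak. Trim12a, of the TRIM family of ubiquitin ligases with antiviral members, scored 175.48 in KO and 320.93 in KI at chr7:104314499-104316082, over its start. Zfp58, a zinc finger protein gene, scored 189.33 in KO and 192.67 in KI. These 3 regions ranked between the percentiles 79.5 and 92.7 in both lists.

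Some of the next genes serve basic cell functions. Nup205, a scaffold protein of the nuclear pore, scored 146.33 in KO and 196.98 in KI. Donson, a protein of DNA replication, shared its region with a gene end of Cryzl1 and scored 142.61 in KO and 217.46 in KI.

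Transport and redox genes were among them as well. Slc36a4, an amino acid transporter gene, scored 152.13 in KO and 192.06 in KI, and its nearest WT peak was 166507 bp away. Msrb2, a mitochondrial methionine sulfoxide reductase gene, scored 145.74 in KO and 195.63 in KI. Cdca7, a cell division cycle gene induced by Myc and E2F, scored 146.28 in KO and 165.91 in KI, with its nearest WT peak 156749 bp away. The region of Cdca7 covered its annotated start, as did those of Slc36a4, Nup205, Msrb2, Donson, Zfp58 and Trim12a.

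The other 6 of these members lay at Tmem147 (with Gapdhs), Map7d1, Hps1, Ror1, Tubb2a and 1810055G02Rik. Their KO scores ran from 132.44 at 1810055G02Rik to 168.30 at Ror1, and their KI scores from 158.34 at 1810055G02Rik to 214.87 at Tmem147. Hps1 acts in the biogenesis of lysosome-related organelles, Ror1 is a Wnt receptor and Tubb2a a beta tubulin.

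The 2 highest-ranked members of all were not at gene ends. The region in the body of Sfi1, a centrosomal protein gene, was 2369 bp wide (chr11:3192034-3194402) and scored 228.73 in KO and 346.16 in KI. The region nearest to Mid1, a ubiquitin ligase gene of microtubules, lay 17369 bp from it on X (chrX:170008168-170012975), was the widest member at 4808 bp and scored 262.37 in KO and 241.96 in KI. Sfi1 lies in a part of chromosome 11 known for duplicated sequence, and Mid1 spans the boundary of the pseudoautosomal region. How reads that fit several places were counted is not given in the sources used here, and the part of copy number in these peaks was not tested.

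The other distal members of the 10 strongest lay in the bodies of Ms4a20, Pyroxd2 and Foxj2 and outside Stk25, Gm40363, Slc17a6, P2ry1 and Morf4l1. Their KO scores were between 142.98 at Morf4l1 and 171.41 at Stk25, and their KI scores between 168.8 at Morf4l1 and 300.28 at Gm40363. Distances to the named gene reached 182022 bp for P2ry1, an ADP receptor gene active in platelets, so that nearness names a gene and shows no link to it.

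The boundary of the top 50% ran through regions of like rank. Just inside were a region in Kcnq1 over the start of the antisense RNA gene Kcnq1ot1, with a KO score of 87.24 and a KI score of 215.15, and one in Inpp5b with 87.44 and 114.46. Just outside were one in Tbc1d9, with a KO score of 109.89 and a KI score of 93.23, and one at the start of Arhgap29 with 87.16 and 144.06.

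Genes of the interferon response had a member at an end in 9 of 46 cases (19.6%), the highest share of the 29 lists and against 4.09% of all genes. Interferon genes encode antiviral effectors, chemokines and their regulators. The 9 genes were Trim12a, Trim30d, Trim5, Cxcl10, Ifitm3, Mx1, Isg20, Cxcl9 and Ifit3. The Trim genes had been put on the list with results of these data in view, so their presence is no independent evidence. Without all Trim genes it was 6 of 39 (15.4%), 1 of them in the top 50% of both lists.

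Cxcl10, a chemokine gene induced by interferon gamma, scored 91.96 in KO and 129.4 in KI (percentiles 53.4 and 65.4). Trim30d scored 144.87 in KO and 157.04 in KI, and Trim5 108.67 in KO and 261.58 in KI. At the other end, Ifit3, an interferon-induced gene, scored 71.19 in KO and 57.02 in KI, so that its KI peak was at the percentile 12.5. Isg20 and Ifitm3 also had a separate WT peak at an end, and the other 7 had none. Gene-end peaks of any kind were present for 24 of the 46 genes in WT, 27 in KO and 32 in KI, beside 9678, 9664 and 11259 of all 21890 genes.

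Mx1 had a member over its annotated end at chr16:97462676-97463490, with a KO score of 66.79 (percentile 29.3) and a KI score of 130.28 (65.7), and its nearest WT peak was 15152 bp away. The Cre transgene of both mutants is driven by a copy of the Mx1 promoter, which WT lacks. Reads of that copy and of the Mx1 gene cannot be told apart in a peak list.

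Of the 5 Trim genes with a gene-end member, 4 lay in 1 gene cluster on chromosome 7, and Trim10 lay on chromosome 17. The stretch from the first to the last of these members, chr7:104218632 to 104508225, was 290 kb long with 10 Trim genes. A member thus lay at each border by choice. The stretch held 10 merged regions, of which 5 had a peak in all 3 lists and 1 had a WT peak alone. The other 4 were the members, at Trim6, Trim5, Trim12a and Trim30d, all in the top 50% of both lists. Members made up 10.7% of all merged regions, but the choice of borders raises their share in this stretch. Trim12c, Trim30a and Trim34a had a gene-end peak in all 3 libraries, and Trim30c in WT only. The promoter windows of Trim5 and Trim12a shared an identical run of 241 bases. The Trim12a window also shared runs of 36 bases with that of Trim12c, and the Trim30d window with that of Trim30a. How reads were divided among such copies is not given in the sources used here, so that peaks at these genes are uncertain, and the same holds for Ifit3 and its copy Ifit3b.

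The ISRE sites of the interferon genes are shown because this element is named after the interferon response. These genes were picked for printing after their values were seen. Mx1, Cxcl9 and Ifitm3 had no promoter window with at least 150 bases inside a member, so that they were not searched. Each line gives 30 bases in the direction of the gene, with the ISRE match in capitals, read on either strand, from the same RefSeq windows. In the 250 bases before the start, Trim30d and Cxcl10 had 1 match and Trim5 and Ifit3 had 2, which overlap in Trim5. Trim12a and Isg20 had none there. The full promoter window of Trim12a, which runs on past the start, did hold an ISRE match, while those of Isg20 held none.
Trim30d, chr7:104507873-104507902, - strand: gtagttctttaGTTTCTTTTtctcagttcc
Trim5, chr7:104288135-104288164, - strand: gagttgtgGTTTCTGTTTCATTTccagagc
Cxcl10, chr5:92349082-92349111, - strand: cacgctttggaAAGTGAAACttacctcact
Ifit3, chr19:34583361-34583390, + strand: ctcagtggtaaGTTTCACTTtcctcttctg
Ifit3, chr19:34583395-34583424, + strand: attttaagtctGTTTCAGTTtctactttcc

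**Figure D3:**
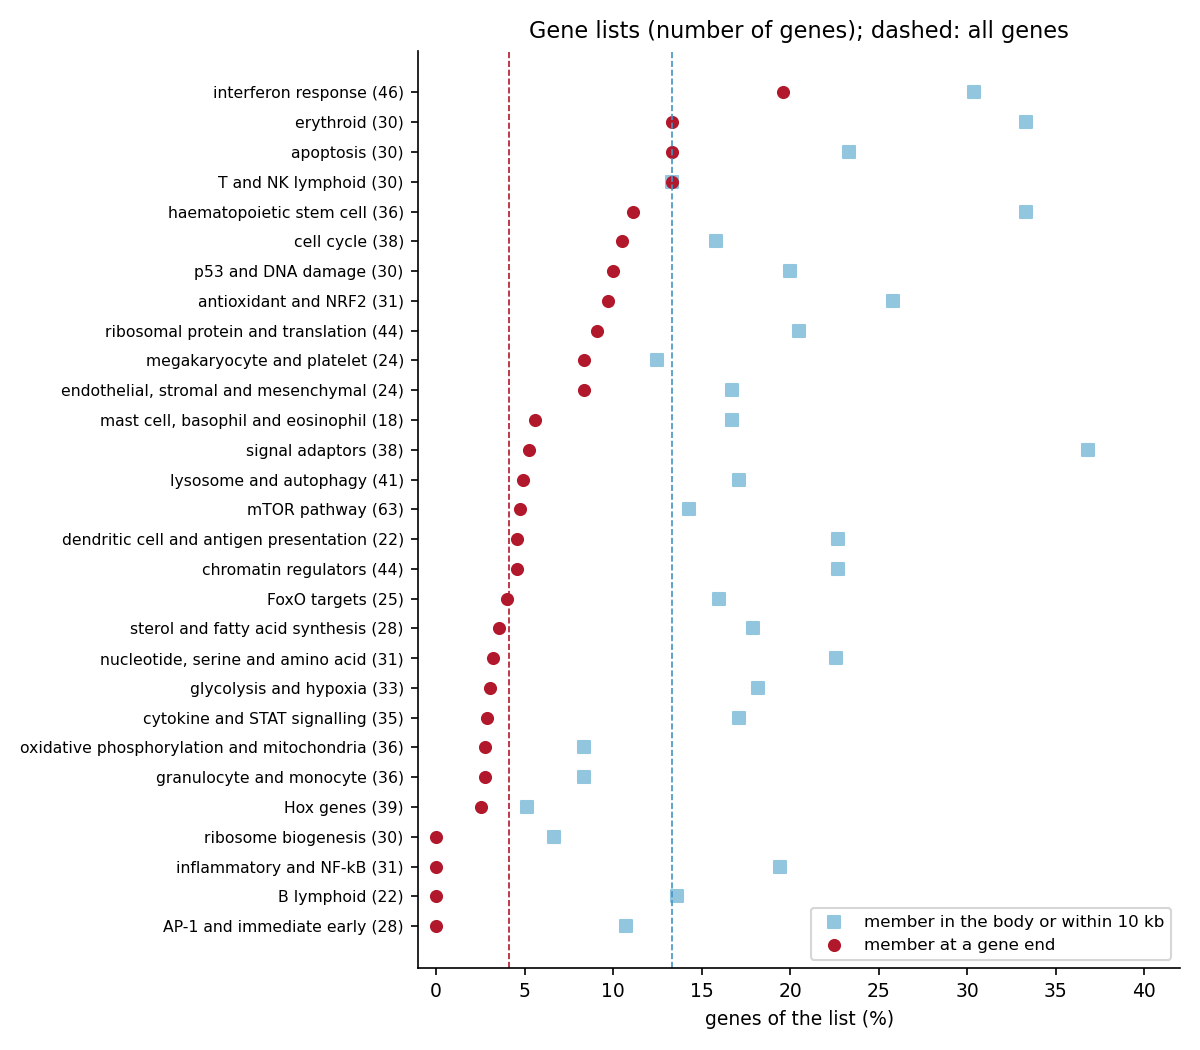
For each of 29 gene lists (number of genes in brackets), points give the share of genes with a member at a gene end (circles) and in the body or within 10 kb (squares), and the dashed lines the same shares over all 21890 genes (4.09% and 13.3%). The interferon response list has the highest gene-end share, at 19.6%.

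Erythroid markers had a member at an end for 4 of 30 genes (13.3%, against 4.09% of all genes; 2 of 30 at equal list size) and in the body or within 10 kb for 10 of 30 (33.3%, against 13.3% of all genes). Epor, the erythropoietin receptor, scored 107.83 in KO and 133.31 in KI, with the region 631 bp from its start inside the gene. It was in the top 50% of both lists, while Car1, a carbonic anhydrase gene, and Trim10 were not. Car1 scored 98.68 in KO and 74.89 in KI, and Trim10 52.14 in KO and 87.7 in KI. Erythroid gene-end peaks were fewer in WT than in the mutants, as given above, and the part of the cell mixture in the sort was not tested.

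HSC markers had a member at an end for 4 of 36 genes (11.1%, against 4.09% of all genes) and in the body or within 10 kb for 12 of 36 (33.3%, against 13.3%). At equal list size the gene-end count was 2 of 36, when the share of all genes was 2.38%. These 4 were Cdkn1c, Hoxb4, Ndn and Tcf15, and for each of them both mutant libraries had a gene-end peak that the WT library lacked. Cdkn1c encodes the cell cycle inhibitor p57, which is active in quiescent HSC; its KO score was 86.7 and its KI score 80.81. Hoxb4, a homeobox factor of HSC expansion, scored 66.33 in KO and 75.6 in KI, and Tcf15 scored 54.92 in KO and 67.19 in KI. None of the 4 reached the top 50% of both lists. Runx1, a transcription factor gene needed for HSC to form, had 2 members in the body or within 10 kb.

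Gene-end shares for markers of other blood lineages and of endothelial and stromal cells ranged from none to 13.3%, against 4.09% of all genes. T and NK lymphoid markers had gene-end members for 4 of 30 genes, or 2 of 30 at equal list size. The 4 were Cd27, Eomes, Bcl11b and Nkg7. The region counted for Cd27 lay in its neighbour Tapbpl, 127 bp from an end of Cd27. That of Nkg7 had the percentiles 1.73 in KO and 0.768 in KI. B lymphoid markers had gene-end members for none of 22 genes. Of the granulocyte and monocyte markers it was 1 of 36 (2.78%), the myeloid regulator Spi1, with a KO score of 55.16 and a KI score of 113.46. Megakaryocyte markers had 2 of 24, at Cd63 and Itga2b, and endothelial and stromal markers 2 of 24, at Col1a1 and Sox17. Among the antigen presentation genes, H2-Aa had 3 members in its body or within 10 kb and no WT peak there.

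Genes of the mTOR pathway had a member at an end in 3 of 63 cases (4.76%), close to the share of all genes. Rptor, the subunit that defines mTORC1, had a member over its start that scored 63.65 in KO and 111.08 in KI. Grb10, an adaptor that mTORC1 phosphorylates and that restrains insulin signalling, scored 65.42 in KO and 67.59 in KI, and Rps6kb2, an S6 kinase gene, 65.19 in KO and 84.45 in KI. None was in the top 50% of both lists. In their bodies or within 10 kb, 9 of the 63 genes (14.3%) had a member, against 13.3% of all genes.

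For processes downstream of mTOR the gene-end share ranged from none to 9.09%, against 4.09% of all genes. Ribosome biogenesis genes had no gene-end member among 30 genes, although 25 of them had a gene-end peak in WT already. Of the ribosomal protein and translation genes, 4 of 44 had one (9.09%), or 1 of 44 at equal list size. The 4 were Rps4x, Rps9, Rpl23 and Rpl8, of which Rps9 also had a WT gene-end peak. Rps4x was in the top 50% of both lists with a KO score of 94.66 and a KI score of 93.79. Lysosome and autophagy genes had 2 of 41, at Map1lc3b and Sqstm1, and FoxO target genes 1 of 25, at Foxo3 itself. Sterol and fatty acid synthesis genes had 1 of 28 (Mvd), and the glycolysis and hypoxia list 1 of 33 (Egln1). Of these genes, Sqstm1, Foxo3 and Mvd also had a WT gene-end peak.

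Genes of cell death and division followed. The apoptosis list had 4 of 30 (13.3%, against 4.09% of all genes), or 3 of 30 at equal list size. The 4 were the pro-apoptotic genes Bmf, Bik and Bak1 and the caspase-8 regulator Cflar. Cflar had 2 members at its ends and no WT peak there. Bmf scored 79.39 in KO and 119.64 in KI, and none of these regions was in the top 50% of both lists. The cell cycle list had 4 of 38 (10.5%), or 3 of 38 at equal list size. The 4 were Donson, Cdkn1c, E2f4 and Aurkb, of which Donson had been added with earlier results in view. The region counted for E2f4 lay in its neighbour Elmo3, 44 bp from an end of E2f4, which also had a WT gene-end peak. The p53 and DNA damage list had 3 of 30, among them Gadd45b and Xpc, which both also had a WT gene-end peak.

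Antioxidant genes had a gene-end member in 3 of 31 cases (9.68%, against 4.09% of all genes), or 2 of 31 at equal list size. In the body or within 10 kb, 8 had a member (25.8%, against 13.3% of all genes). Srxn1, sulfiredoxin, which reactivates oxidised peroxiredoxins, scored 103.92 in KO and 236.8 in KI over its start. Txndc5, an endoplasmic reticulum thioredoxin, scored 79.6 in KO and 270.19 in KI, the latter at the percentile 88.9. Srxn1 and Txndc5 were put on the list with results of these data known. The third was Sqstm1, with a KO score of 50.93, close to the lowest score listed, and a KI score of 93.85. Srxn1 and Sqstm1 also had a WT gene-end peak, and the region at Sqstm1 lay 54 bp from a WT peak. A pair of members lay within 10 kb of Hmox1, the haem oxygenase gene.

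Signal adaptors and small GTPase regulators had few gene-end members, 2 of 38 (Vav3 and Itgb2), but 14 of 38 (36.8%) had a member in the body or within 10 kb. Over the whole Arhgap and Arhgef families, which switch small GTPases off and on, it was 24 of 59 (40.7%). At an end, 8 of 59 (13.6%) had a member, against 4.09% of all genes. Long genes offer more room for a nearby region, and gene length was not matched. Olfactory receptor genes, by contrast, had a gene-end member in 2 of 1110 cases (0.18%).

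Over all lists, 59 of 924 genes (6.39%, against 4.09% of all genes) had a gene-end member. In the body or within 10 kb, 171 (18.5%, against 13.3% of all genes) had one. The gene-end share was above that of all genes in 17 of the 29 lists. No gene-end member was found for the inflammatory and NF-kB list (31 genes) or the AP-1 and immediate early list (28 genes). In the body or within 10 kb, 6 and 3 of these genes had a member (19.4% and 10.7%, against 13.3% of all genes). Among these members were 1 in the body of Nfkb2 and 1 that lay 1935 bp from Egr3.

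At annotated promoters the members had an intermediate base content. RefSeq promoter windows, 250 bases before to 50 after a start, were covered for at least 150 bases by a member in 702 cases, from 629 genes, of which 533 were protein-coding and 96 gave long non-coding RNA. Their median GC content was 59.3%, against 63.0% in the 9078 windows covered by regions of all 3 lists and 48.3% in the 21057 windows that no region covered. The ratio of observed to expected CpG was 0.714 in the members' windows, 0.818 in those of all 3 lists and 0.232 in the uncovered ones. Windows that shared a run of 36 bases with another window made up 4.27% of the members' windows and 2.8% of those of all 3 lists.

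The shares of windows with an ETS, GATA, AP-1 or ISRE match lay between those of the promoters open in all 3 libraries and of the uncovered ones. ETS matches were present in 15.2% (12.8 to 18.1) of the members' windows, against 21.0% (20.2 to 21.9) for all 3 lists and 8.86% of all 32851 windows. GATA matches were present in 8.26% (6.45 to 10.5), against 4.63% (4.21 to 5.08) for all 3 lists and 11.2% of all windows. For AP-1 the shares were 5.84% (4.33 to 7.83), 2.54% (2.24 to 2.89) and 5.2%. ISRE matches stood at 6.13% (4.58 to 8.15), against 3.94% (3.56 to 4.36) for all 3 lists and 5.77% of all windows, so that the members' windows held this motif about as often as promoters at large.

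In the windows covered by regions of KI alone the GATA share was 12.1% (10.1 to 14.5), above the 8.26% of the members' windows, and the difference was not tested. The shares there of the other motifs were ETS (12.3%, 10.2 to 14.6), AP-1 (5.78%, 4.41 to 7.54) and ISRE (4.74%, 3.51 to 6.37). SP/KLF matches were in 58.1% of the members' windows and in 71.9% of those of all 3 lists, and NFY matches in 31.3% and 41.3%. The shares of the RUNX motif were 4.99% and 3.18%, and 5.27% of all windows held it. Matches of such short motifs depend on base content, which differed between these sets as given above. The CTCF core (CCCTC) was in 74.9% of the members' windows and 66.0% of all windows, so that it hardly separates them.

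**Figure D4:**
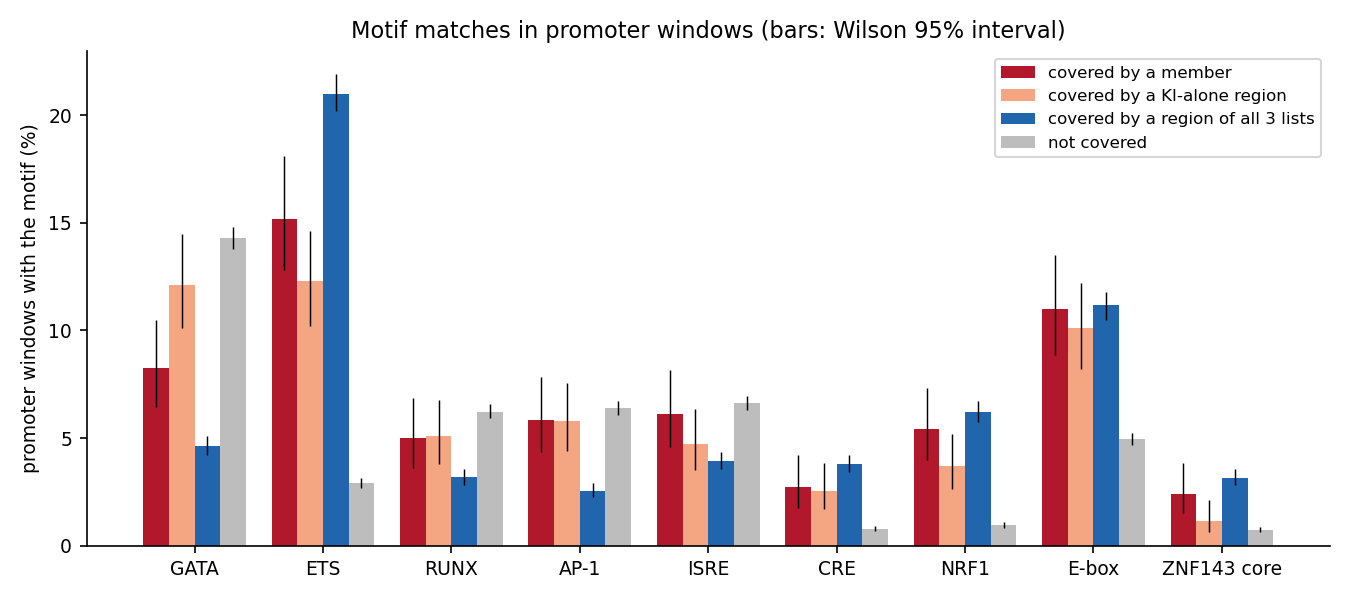
Bars give the share of RefSeq promoter windows with a motif on either strand, for windows covered by a member, by a KI-alone region, by a region of all 3 lists, or by none; error bars are Wilson 95% intervals over windows. ETS matches were in 15.2% of the members' windows and in 21.0% of those of all 3 lists, and GATA matches in 8.26% and 4.63%.

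Small RNA genes near a member were counted too, without a count near other regions to set beside them. Of 1005 miRNA hairpins in the RefSeq table, 5 lay within 1 kb of a member and 2 overlapped one, Mir5100 and Mir718. The region at Mir718 scored 69.1 in KO and 85.68 in KI, and that at Mir5100 70.48 in KO and 96.13 in KI, so that neither was in the top 50% of both lists.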

How the data were processed

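Each ATAC-seq library had its own deposited peak list of 5 columns, so no calls were made on pooled libraries. Peak names have the form MACS writes. Column 5 gives the authors' score of a peak, taken as 10 times the negative log10 of a p-value with a minimum of 50; this reading rests on the values. The build mm10 and the tool CASAVA are named per the submitters' processing notes. Aligner, MACS version, read shift, duplicate handling, control and blacklist filter are not given in the sources at hand, and read depth is unknown. A deeper library yields more weak peaks, so absence from a list is no measure of closed chromatin.

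Lists were merged with bedtools 2.31.1 (gap 0). Scores were ranked within their own list only; where a region held several peaks of a list, the highest counted. Gene positions were those of RefSeq on GRCm38.p6 (21887 protein-coding genes and 3 list genes of another class), and promoter and miRNA sequences from RefSeq tables of that assembly. All 924 list genes matched. With 1 library per genotype there was no replicate error, no test and no p-value; shares carry Wilson 95% intervals (SciPy 1.17.1), which cover counting error over regions or genes only.

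The members, gene lists and naming rule were chosen with earlier results of these data known. Named were Mtor, the 15 strongest members at a gene end, the 10 strongest farther away, up to 4 genes per list by the same order, and members next to the thresholds; genes beyond these were chosen after their values were seen. A few genes that this rule names are not reported here. Merging, locations and motif search were tested on simulated peaks and sequence. Alternatives were equal list sizes, a merge gap of 500 bp, a stricter overlap and distance, a mutant score of at least 100, gene-end windows of 500 and 2500 bp and the top 25% of both lists.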

Additional observations from a re-analysis of the deposited data

How the results depend on the processing

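At equal list size, with the 17316 highest-scoring peaks of each list, there were 1745 members, 117 of them in the top 50% of both shortened lists, and 26.4% lay at a gene end. With mutant scores of at least 100, 234 members were left, and 36.8% of them lay at a gene end. All of these were in the top 50% of both lists, since a score of 100 lies above both medians. Among the top 25% of both lists there were 19 members. Where 50% of both mutant peaks had to be shared and any WT peak had to be at least 1000 bp away, 2834 members remained, 377 in the top 50%, with 21.5% at a gene end. Merging peaks up to 500 bp apart gave 3459 members, 417 in the top 50% and 22.2% at a gene end. The gene-end share was 19.9% with a window of 500 bp and 28.6% with 2500 bp. It was below the 61.2% of the regions of all 3 lists under each of these settings, although that class was not recomputed. Of the 25 members named by rank, all stayed members with the wider merge and 23 did under the stricter overlap. All 25 also stayed at equal list size and with mutant scores of at least 100. Both of these settings drop only lower-scoring mutant peaks and leave the WT list as it is, so they could not remove these members. List genes with a gene-end member numbered 77 with the 2500 bp window and 36 at equal list size, against 59; the share of all genes was then 5.37% and 2.38%. For the interferon list the counts were 10 and 6 of 46, for the erythroid list 6 and 2 of 30, and for the HSC list 5 and 2 of 36. The fewer members at equal list size and at higher scores follow from the removal of weaker peaks. No paired analysis was possible because each genotype had 1 ATAC-seq library and its label carries no replicate number.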

Other observations

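Several members lay at imprinted genes, which are expressed from 1 parental copy and are controlled by DNA methylation that differs between the copies. This list of 36 genes was drawn up after such members had been seen and is a description only. A member lay at an end of 4 of the 36 (11.1%, against 4.09% of all genes): Ndn, Kcnq1ot1, Cdkn1c and Grb10. In Ndn, Kcnq1ot1 and Grb10 it covered the annotated start. With gene bodies included it was 9 of 36, of which Kcnq1ot1 and Kcnq1 were counted for the same region. The share of all genes by this measure was not computed. A WT peak lay at an end of 7 of the 36, beside 9678 of all 21890 genes. The region in Peg10, chr6:4749067-4749511, scored 111.91 in KO and 221.12 in KI and lay 567 bp from a WT peak. Kcnq1 and Cdkn1c, neighbours of Kcnq1ot1 on chromosome 7, had no WT peak at an end.

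A group of 3 members lay in the body or within 10 kb of Ifit1bl1, an interferon-induced gene of chromosome 19, where WT had no peak in that stretch. The strongest scored 77.47 in KO (percentile 41.4) and 176.34 in KI (76.8). The gene had no member at an end.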
